A study of Mus musculus with 6 samples.

Results

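The spliceosome particle-specific proteins are those that belong to 1 particle of the splicing machinery rather than to the rings shared by all of them, and 50 genes that encode them were chosen by name. All 50 names were found in the deposited table of 21307 genes, each in a row of its own. All 50 were among the 10856 rows compared here, those with a mean of at least 1 FPKM over both conditions and a value above 0 in each. They fall into 6 groups: U1 (3 genes), U2 (13), the U4/U6.U5 tri-snRNP (15), the minor spliceosome (3), the Prp19 complex and its partners (9), and the step helicases with the second-step factors (7). FPKM is the number of mapped fragments scaled to transcript length and library size, so it can be compared between genes.

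The cells were B cells from the bone marrow of pretumoral mice aged 6 to 8 weeks, on a mixed C57BL/6 x 129S1/SvlmJ background, cultured with IL-7 at 5 ng/ul. The 4-OHT group (3 libraries) was treated with 50 nM 4-hydroxytamoxifen for 24 h, to activate Cre and delete Prmt5, and was then kept for 5 more days. The ethanol group (3 libraries) received the solvent on the same schedule. Both groups carried the same alleles, E-mu-myc;Prmt5F/FCreER: a Myc transgene under an immunoglobulin enhancer, which acts in B cells, loxP-flanked Prmt5 and a tamoxifen-inducible Cre whose promoter the labels do not name. The 4-OHT libraries are titled PT and the ethanol libraries WT, and the design text names wild-type beside pre-tumoral animals, whereas the sample characteristics and the table give 1 genotype and the treatments 4-OHT and ethanol, which are used here. No library of cells without the loxP-flanked alleles was among those used here, so the action of 4-OHT and of Cre itself cannot be told apart from that of the deletion.

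Splicing removes introns in ordered steps. U1 pairs with the 5′ splice site and U2 with the branch point, the preassembled U4/U6.U5 tri-snRNP then joins, helicases rearrange the RNAs into an active centre that the Prp19 complex stabilises, and further helicases drive the second step, release of the mRNA and disassembly. The minor spliceosome does the same for a rare class of introns with its own U11 and U12 particles. PRMT5 methylates arginines of Sm proteins, which form the ring around most spliceosomal RNAs. The genes described here encode the proteins that give each particle its identity on top of that ring.

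The promoters of 38 of the 50 members were matched in RefSeq (build GRCm38.p6), as 43 windows that run from 250 bases before to 50 bases after a start site. Those of 5 members are shown so that the sequence can be read beside the values. They are the 3 members that hold the E-box CACGTG, the letters bound by MYC with MAX, and the 2 members with a window that had the lowest ratios of 4-OHT over ethanol. Capitals mark CACGTG, its variant CACGCG and the ETS-type motif CCGGAAG, each searched on both strands, so that the last may read CTTCCGG and the variant CGCGTG. The windows are chr7:27196222-27196521 (minus strand) for Snrpa, chr3:103171405-103171704 (plus) for Bcas2, chr3:95855836-95856135 (minus) for Prpf3, chr5:124482905-124483204 (plus) for Snrnp35 and chr6:87838710-87839009 (minus) for Isy1.
Snrpa: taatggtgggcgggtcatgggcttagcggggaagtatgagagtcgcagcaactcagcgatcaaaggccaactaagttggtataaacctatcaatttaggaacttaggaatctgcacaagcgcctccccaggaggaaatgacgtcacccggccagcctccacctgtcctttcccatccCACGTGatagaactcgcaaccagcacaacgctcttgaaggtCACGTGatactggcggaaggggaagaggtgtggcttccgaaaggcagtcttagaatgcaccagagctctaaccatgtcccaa
Bcas2: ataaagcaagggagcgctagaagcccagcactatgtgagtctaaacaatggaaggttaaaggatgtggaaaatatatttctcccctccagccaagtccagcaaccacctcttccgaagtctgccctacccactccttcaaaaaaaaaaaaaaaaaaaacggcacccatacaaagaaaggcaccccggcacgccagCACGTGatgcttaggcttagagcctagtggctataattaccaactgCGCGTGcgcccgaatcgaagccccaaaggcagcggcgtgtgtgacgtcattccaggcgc
Prpf3: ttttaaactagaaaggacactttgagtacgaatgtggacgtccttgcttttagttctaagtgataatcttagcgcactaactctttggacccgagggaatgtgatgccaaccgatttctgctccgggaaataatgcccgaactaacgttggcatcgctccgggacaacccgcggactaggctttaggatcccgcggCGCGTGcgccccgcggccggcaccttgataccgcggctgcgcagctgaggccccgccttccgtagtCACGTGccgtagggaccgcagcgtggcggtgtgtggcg
Snrnp35: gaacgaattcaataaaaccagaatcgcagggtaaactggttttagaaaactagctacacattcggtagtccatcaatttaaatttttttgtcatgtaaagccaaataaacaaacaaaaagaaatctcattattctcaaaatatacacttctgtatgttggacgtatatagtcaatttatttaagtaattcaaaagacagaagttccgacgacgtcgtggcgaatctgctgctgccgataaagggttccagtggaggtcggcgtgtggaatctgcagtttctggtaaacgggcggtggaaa
Isy1: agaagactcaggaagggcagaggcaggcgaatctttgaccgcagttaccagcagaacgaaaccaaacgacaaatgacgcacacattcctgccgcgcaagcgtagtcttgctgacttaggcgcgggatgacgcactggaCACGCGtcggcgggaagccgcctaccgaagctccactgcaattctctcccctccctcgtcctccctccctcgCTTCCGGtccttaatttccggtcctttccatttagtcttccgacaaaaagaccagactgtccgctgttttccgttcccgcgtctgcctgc

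Counted to the first base of the motif from the start site, the Snrpa window holds CACGTG at -73 and -32, that of Bcas2 at -55 and that of Prpf3 at 13. Another window of Snrpa and another of Prpf3, not printed, also hold it. CACGTG was present in 3 of 38 members (7.89%), against 12.3% of 7887 genes of the compared rows and 8.09% of all 27025 genes with a window. CACGCG was present in 17 of 38 members (44.7%), against 20.5% of the genes of the compared rows, and CCGGAAG in 20 of 38 (52.6%), against 20.6%. CACGCG can overlap its own reverse complement, as it does once in the window of Snrnp200. The windows of the members held a median of 23 CG dinucleotides, against 20 for the genes of the compared rows and 7 for all genes, and their median GC content was 57.0%, against 60.7% for the genes of the compared rows. The printed Snrnp35 window has a GC content of 38.3% and none of the 3 motifs. Members with and without each motif overlapped in ratio, and no difference was tested. Among the 3 with CACGTG, Snrpa had a log2 ratio of -0.50 and Prpf3 one of 0.04. The median log2 ratio was -0.31 in the 17 members with CACGCG and -0.34 in the 21 without. The ratios ran from -0.66 to 0.32 in those with CACGCG and from -0.75 to 0.01 in those without. Of the 7 members higher in 4-OHT, Prpf6, Ctnnbl1, Prpf3 and Snrnp200 hold CACGCG, Sf3b2 does not, and Slu7 and Ddx23 had no window. In the same way, Prpf6, Prpf3, Snrnp200 and Sf3b2 hold CCGGAAG and Ctnnbl1 does not. The median was -0.29 in the 20 members with CCGGAAG and -0.35 in the 18 without. A match is a description of letters and not a measured binding site.

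The table gives 1 value per gene and condition, so no value has a replicate error, no test across libraries was possible, and read depth is unknown. Every difference below is one of size in these pooled values. It is given as a log2 ratio, with 4-OHT on top of ethanol and 1 added to each FPKM, unless the authors' deposited table is named. Prmt5, the deleted gene, stood at 5.71 FPKM in 4-OHT and 41.6 FPKM in ethanol (log2 ratio -2.67), and Myc at 213 FPKM in 4-OHT and 402 FPKM in ethanol. Markers of other cells were present in both conditions beside those of B cells. All 12 B-lineage markers were lower in 4-OHT, with a summed 1111 FPKM in 4-OHT and 2322 FPKM in ethanol. All 10 compared neutrophil markers were higher, with a summed 3608 FPKM in 4-OHT and 415 FPKM in ethanol.

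Most particle-specific genes were slightly lower in 4-OHT. Of the 50 members, 43 (86.0%) were lower, against 55.1% of all compared rows. The median log2 ratio was -0.29, a level 1.22-fold lower, against -0.07 over all compared rows. On the FPKM + 1 scale, 21 members (42.0%) were at least 20% lower (a log2 ratio of -0.32), against 29.9% of all compared rows, and none was at least 25% higher (0.32, the same size in the other direction), against 27.7%. At least 1.5-fold lower were 5 members (10%), which is close to the 12.8% of all compared rows. None was 2-fold lower, against 2.58%, or 2-fold higher, against 10.4%. The members nearest the 20% size were Snrnp70 just inside it (1.27-fold lower) and Usp39 just outside it (log2 ratios of -0.34 and -0.32).

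The members were all well expressed, with means of 10.2 to 147 FPKM, so they were also set beside the 5582 compared rows in that range. Of those rows 59.8% were lower in 4-OHT, 33.1% by at least 20% and 13.8% at least 1.5-fold, and 22.4% were at least 25% higher, with a median log2 ratio of -0.13. The ratios of the members lay close together. Their interquartile range was 0.26, against 0.67 for the rows in the same range of levels and 0.79 for all compared rows. Within 1.5-fold in either direction were 45 of 50 members (90.0%), against 71.4% of the rows in their range. Their lowest log2 ratio was -0.75 and their highest 0.32, against -2.67 (Prmt5) and 4.297 (Col3a1, a collagen gene) in those rows. By level, the median log2 ratio of the members was -0.22 for means from 10 to 25 FPKM (16 members, -0.11 for all rows of that level), -0.32 from 25 to 50 FPKM (16 members, -0.14), -0.29 from 50 to 100 FPKM (13 members, -0.15) and -0.34 from 100 FPKM (5 members, -0.19).

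**Figure D1:**
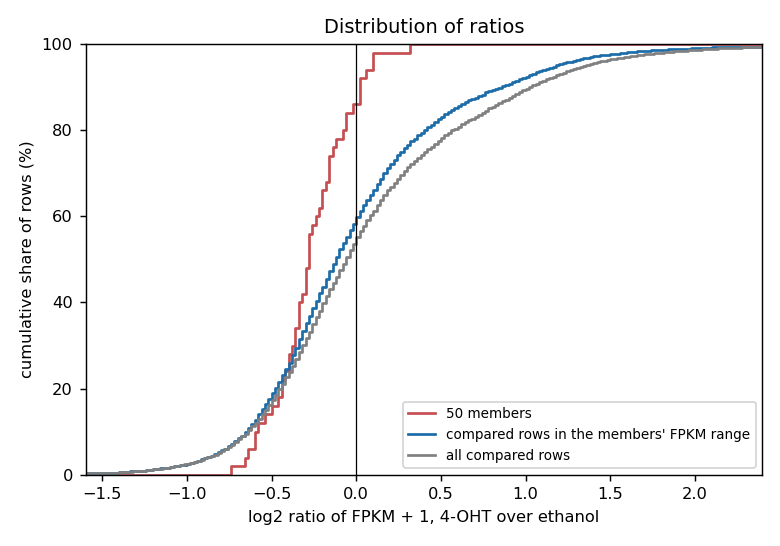
The cumulative share of rows (%) is plotted against the log2 ratio of FPKM + 1, 4-OHT over ethanol, for the 50 members, for the 5582 compared rows in their range of mean FPKM and for all 10856 compared rows. The curve of the members crosses 0 at 86.0%, against 59.8% and 55.1%, and climbs within a narrow span from -0.75 to 0.32.

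In bulk RNA, fewer cells of a type and less RNA per cell cannot be told apart, and the share of B-lineage transcripts differed between the conditions. The median log2 ratio of the 12 B-lineage markers was -0.98, with a range from -1.96 to -0.03. Among markers of other cells, the median was 3.14 for neutrophils (10 of 10 higher) and 1.08 for monocytes and macrophages (9 of 10 higher, a summed 5805 FPKM in 4-OHT and 2858 FPKM in ethanol). It was 1.85 for megakaryocytes (8 of 8 higher, 888 FPKM in 4-OHT and 237 FPKM in ethanol), 3.63 for stromal cells (8 of 8 higher, 539 FPKM in 4-OHT and 33.1 FPKM in ethanol) and 1.33 for mast cells and basophils (6 of 6 higher, 238 FPKM in 4-OHT and 69.1 FPKM in ethanol). T cell markers summed to 17.1 FPKM in 4-OHT and 15.7 FPKM in ethanol over 4 compared genes, 3 of them higher. Of the erythroid markers, Epor was compared, at 2.13 FPKM in 4-OHT and 0.466 FPKM in ethanol, and Alas2 and Klf1 were below 1 FPKM in both conditions. The macrophage marker Lyz2 is listed at 0 in 4-OHT beside 3835 FPKM in ethanol and a listed fold change of 0, and was left out of its sum. No other marker reported here was listed at 0. The part of this shift in cell types in the ratios of the splicing genes was not tested.

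**Figure D2:**
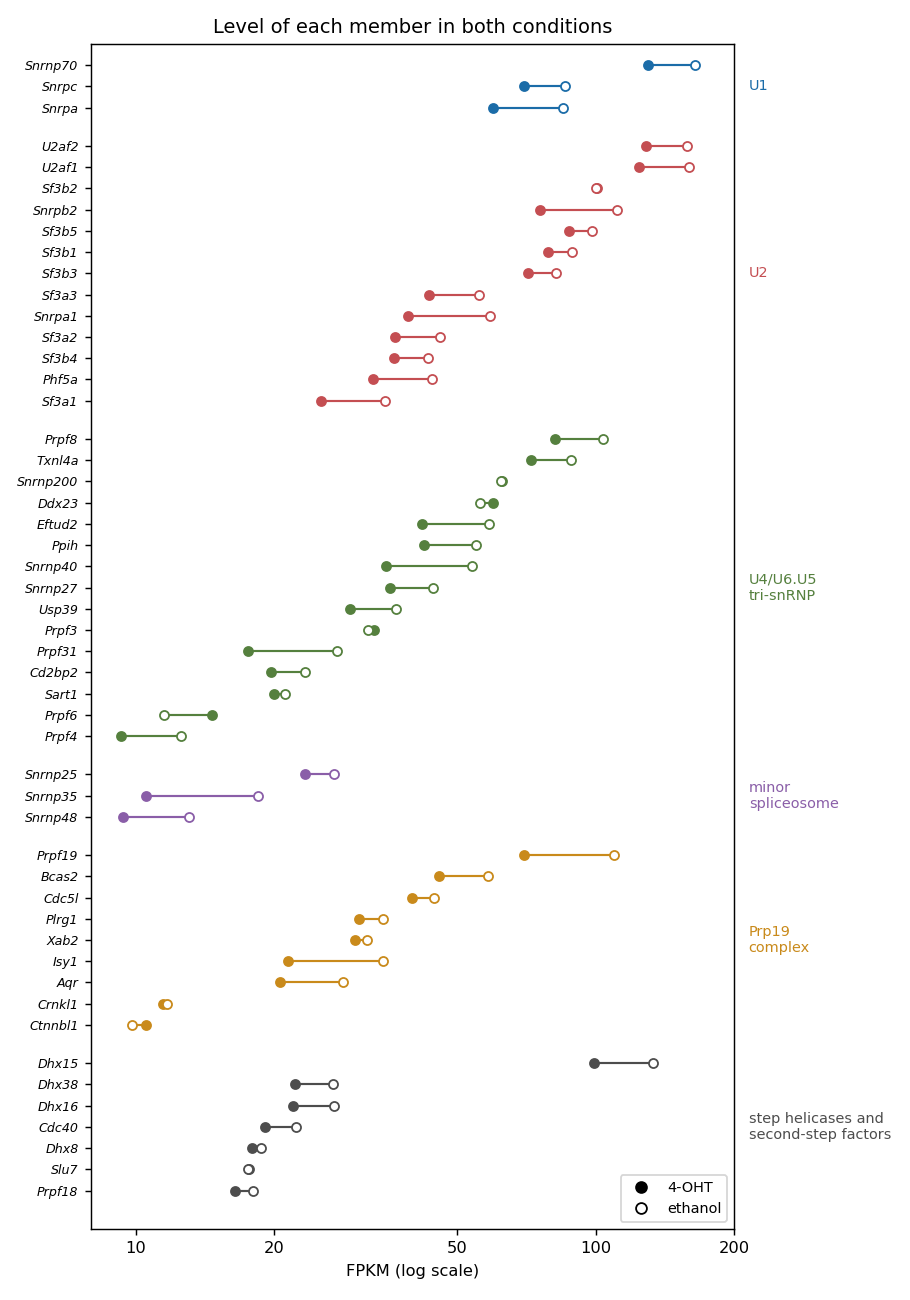
FPKM (log scale) of each of the 50 members in 4-OHT (filled circles) and in ethanol (open circles), by group and ordered by mean level. In 43 members the filled circle lies left of the open one, and the highest levels are those of Snrnp70, U2af2 and U2af1.

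All 3 U1-specific genes were lower in 4-OHT, against 55.1% of all compared rows. Snrnp70, whose protein binds the first stem-loop of U1 RNA, stood at 129.7 FPKM in 4-OHT and 164 FPKM in ethanol (log2 ratio -0.34). It had the highest mean of the 50 members. Snrpa, whose protein binds another U1 stem-loop, stood at 59.6 FPKM in 4-OHT and 85.0 FPKM in ethanol (-0.50). Snrpc, whose zinc-finger protein touches the paired 5′ splice site, stood at 69.8 FPKM in 4-OHT and 85.6 FPKM in ethanol (-0.29). In ethanol Snrpa and Snrpc were at nearly the same level, and in 4-OHT Snrpa was the lower of them.

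The U2 genes had a median log2 ratio of -0.32: 12 of 13 were lower in 4-OHT, and 6 by 20% or more. Of all compared rows 55.1% were lower and 29.9% by that size. The lowest ratios belonged to the genes of the proteins that sit on U2 RNA itself. Snrpa1, which encodes the leucine-rich repeat protein of that heterodimer, stood at 39.1 FPKM in 4-OHT and 59.0 FPKM in ethanol (-0.58). Its partner Snrpb2, an RNA-binding relative of Snrpa, stood at 75.7 FPKM in 4-OHT and 111 FPKM in ethanol (-0.55). Snrpa1 stood at 0.516 of the level of Snrpb2 in 4-OHT and at 0.532 of it in ethanol.

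The SF3a and SF3b complexes anchor U2 at the branch point, and they differed in size of change. The 3 SF3a genes had log2 ratios of -0.45 (Sf3a1), -0.36 (Sf3a3) and -0.32 (Sf3a2), with Sf3a1 at 25.3 FPKM in 4-OHT and 34.9 FPKM in ethanol. The 6 SF3b genes had a median of -0.18. Sf3b2 was level, at 100.8 FPKM in 4-OHT and 100.4 FPKM in ethanol (0.01). Sf3b1, the large scaffold that holds the branch helix, stood at 78.9 FPKM in 4-OHT and 88.6 FPKM in ethanol (-0.17). Sf3b3 and the small subunit Sf3b5 were alike, at -0.20 and -0.17, and Sf3b4, an RNA-binding subunit, was at -0.24. Phf5a, a small zinc-finger subunit next to Sf3b1, was the only SF3b gene at least 20% lower, at 32.8 FPKM in 4-OHT and 44.1 FPKM in ethanol (-0.41). With 1 value per condition the difference between SF3a and SF3b was not tested.

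U2AF reads the 3′ splice site before U2 binds. U2af1, which recognises the terminal AG, stood at 124 FPKM in 4-OHT and 159 FPKM in ethanol (-0.36). U2af2, which binds the pyrimidine tract, stood at 128 FPKM in 4-OHT and 158 FPKM in ethanol (-0.29). They were nearly equal in level in both conditions, at means of 142 and 143 FPKM, the highest of all members after Snrnp70.

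**Figure D3:**
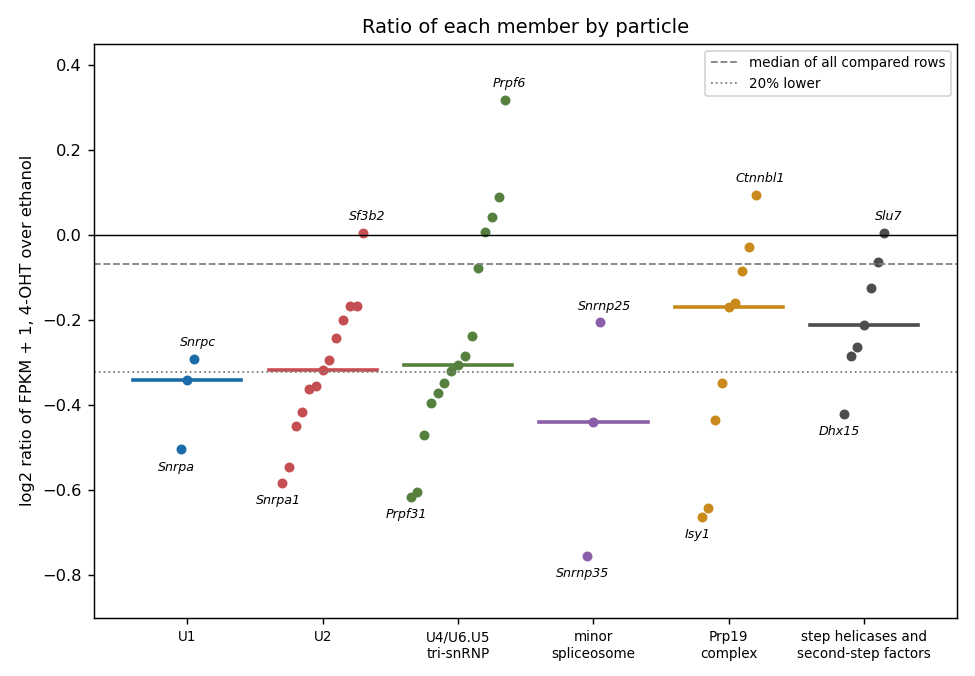
Log2 ratio of FPKM + 1, 4-OHT over ethanol, of each member (points) by group, with the median of the group (bars), the median of all compared rows (dashed line) and the size of 20% lower (dotted line). The points of the tri-snRNP run from -0.62 for Prpf31 to 0.32 for Prpf6. Those of U1 and the minor spliceosome, 3 genes each, all lie below 0, as do 55.1% of all compared rows.

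The tri-snRNP, the largest group, held 4 of the 7 members that were higher in 4-OHT. That was 4 of its 15 genes, against 44.9% higher over all compared rows. Of the 15 genes 11 were lower, 6 by at least 20% and 2 at least 1.5-fold, with a median log2 ratio of -0.31. The same shares were 55.1%, 29.9% and 12.8% of all compared rows. They were 59.8%, 33.1% and 13.8% of those in the members' range of mean FPKM. Within the U5 particle the ratios went apart. Prpf8, the scaffold around the active centre, stood at 81.5 FPKM in 4-OHT and 104 FPKM in ethanol (-0.35). Snrnp200, the helicase that unwinds U4 from U6, was level at 62.6 FPKM in 4-OHT and 62.2 FPKM in ethanol (0.01). Eftud2, the GTPase that accompanies both, stood at 42.0 FPKM in 4-OHT and 58.5 FPKM in ethanol (-0.47). In ethanol the levels of Snrnp200 and Eftud2 were within a few FPKM of each other, and in 4-OHT Snrnp200 was the higher, at 1.49 times Eftud2 against 1.06 times in ethanol.

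Snrnp40, a WD-repeat protein of U5, had the lowest U5 ratio, at 35.1 FPKM in 4-OHT and 53.8 FPKM in ethanol (-0.60). Prpf6, which bridges U5 to U4/U6, had the highest ratio of all members, at 14.7 FPKM in 4-OHT and 11.5 FPKM in ethanol (0.32). It lies just under the size of 25% higher and exceeds it with a smaller pseudocount, with either rescaling of the conditions, and in the authors' deposited table, which lists 0.34. Ddx23, the helicase that exchanges U1 for U6 at the 5′ splice site, was slightly higher at 59.7 FPKM in 4-OHT and 56.0 FPKM in ethanol (0.09). Txnl4a, a small thioredoxin-fold subunit, was at -0.29, and Cd2bp2, which is present in free U5 and leaves before the tri-snRNP forms, at -0.24.

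The U4/U6 proteins were also uneven. Prpf31, which binds the U4 stem-loop, stood at 17.6 FPKM in 4-OHT and 27.4 FPKM in ethanol (-0.62). Prpf3, which spans U4 and U6, was level at 32.5 FPKM in 4-OHT and 32.1 FPKM in ethanol (0.04). Its partners in the same trimer were lower: Prpf4, at 9.28 FPKM in 4-OHT and 12.5 FPKM in ethanol (-0.40), and the cyclophilin gene Ppih, at 42.3 FPKM in 4-OHT and 55.0 FPKM in ethanol (-0.37). Of the genes that hold the tri-snRNP together, Usp39 was at -0.32, Snrnp27 at -0.31 and Sart1 at -0.08. The row of Sart1 overlaps D330050I16Rik in the table, and their reads may not be separable.

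The 3 member genes of the minor spliceosome were all lower, against 55.1% of all compared rows. As a group they had the lowest median level of the 6 groups. Snrnp35, the U11 counterpart of Snrnp70, had the lowest ratio of the 50 members, at 10.5 FPKM in 4-OHT and 18.4 FPKM in ethanol (1.69-fold lower, log2 ratio -0.75). The authors' deposited table lists -0.81 for Snrnp35. Its row lies on chromosome 5 from 124933164 to 124941131 (build mm9), and 6.52% of the compared rows had a lower ratio. Snrnp48, which helps U11 recognise the 5′ splice site, stood at 9.37 FPKM in 4-OHT and 13.1 FPKM in ethanol (-0.44), and Snrnp25 at 23.3 FPKM in 4-OHT and 27.0 FPKM in ethanol (-0.21). The other 5 genes of the minor spliceosome (Rnpc3, Zcrb1, Zmat5, Pdcd7 and Zrsr2) were all lower, against 55.1% of all compared rows. Their median of -0.12 was close to that of ordinary rows. It was -0.07 over all compared rows and -0.13 over those in the members' range of mean FPKM. Zcrb1 (-0.08) and Zrsr2 (-0.09) changed least. Of the 5 genes, 1 was at least 20% lower. That was Rnpc3, which bridges U11 and U12, at 7.71 FPKM in 4-OHT and 11.4 FPKM in ethanol (-0.51).

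The Prp19 complex and its partners spread widely around a median of -0.17 (-0.09 with median-of-ratios scaling of the conditions). Of its 9 genes 8 were lower and 4 of these by at least 20%, against 55.1% and 29.9% of all compared rows. Prpf19, the ubiquitin ligase that gives the complex its name (chromosome 19, 10969782 to 10980021, mm9), stood at 69.7 FPKM in 4-OHT and 109 FPKM in ethanol (-0.64). Isy1, a partner that helps shape the active centre (chromosome 6, 87768442 to 87788753, mm9), stood at 21.4 FPKM in 4-OHT and 34.5 FPKM in ethanol (-0.66). After Snrnp35, no other member had a ratio as low as these 2.

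The other core subunits of the Prp19 complex were less changed than Prpf19. Bcas2 stood at 45.7 FPKM in 4-OHT and 58.4 FPKM in ethanol (-0.35). Plrg1, a WD-repeat protein, was at -0.17 and the Myb-like Cdc5l at -0.16. Ctnnbl1, which binds Cdc5l, was higher, at 10.6 FPKM in 4-OHT and 9.82 FPKM in ethanol (0.09), and was the least abundant member by mean. Prpf19 was 1.75 times as abundant as Cdc5l in 4-OHT and 2.45 times in ethanol. Among the partners, Aqr, a helicase that binds the intron, stood at 20.6 FPKM in 4-OHT and 28.2 FPKM in ethanol (-0.43), whereas Xab2 (-0.08) and Crnkl1 (-0.03), both scaffolds of repeated helices, were near level.

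Of the step helicases and second-step factors, 6 of 7 were lower, against 55.1% of all compared rows. Their median was -0.21 (-0.14 with median-of-ratios scaling). At least 20% lower was 1 of the 7, against 29.9% of all compared rows. That one was Dhx15, which takes spent spliceosomes apart, at 99.1 FPKM in 4-OHT and 133 FPKM in ethanol (-0.42). It was also more abundant than the other 3 DEAH-box helicases. Dhx16, which activates the spliceosome, was at -0.28, and Dhx38, which remodels it after the first step, at -0.26. Dhx8, which releases the mRNA, stood at 17.9 FPKM in 4-OHT and 18.7 FPKM in ethanol (-0.06). Of the second-step factors, Slu7 was level at 17.7 FPKM in 4-OHT and 17.6 FPKM in ethanol (0.01), Prpf18 was at -0.12, and Cdc40 stood at 19.1 FPKM in 4-OHT and 22.3 FPKM in ethanol (-0.21).

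Gene structure varied among the members. Exons of the longest coding transcript (GENCODE M21) ran from 1 for Sf3b5 to 45 for Snrnp200, with a median of 14. The 27 members with at most 14 exons had a median log2 ratio of -0.35 and 15 of them (55.6%) were at least 20% lower, against 28.8% of the 7036 compared rows with as few exons. The 23 with more exons had a median of -0.17 and 6 (26.1%) were at least 20% lower, close to the 31.9% of the 2571 compared rows with as many. The difference between the sides was not tested. Across the 50 members the Spearman correlation of ratio and exon number was 0.35, and across 9607 compared rows with a coding transcript it was -0.05. Genes of the same libraries are not independent replicates, and FPKM depends on transcript length. For the length of the longest coding transcript, the correlation with the ratio was 0.24 over the members and -0.02 over those rows. That length need not be the one behind the FPKM values. Members with many exons were not all level, since Prpf8 (42 exons), Aqr (35) and Eftud2 (28) were at -0.35, -0.43 and -0.47. With mean FPKM the correlation over the members was -0.19, against -0.14 over all compared rows.

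**Figure D4:**
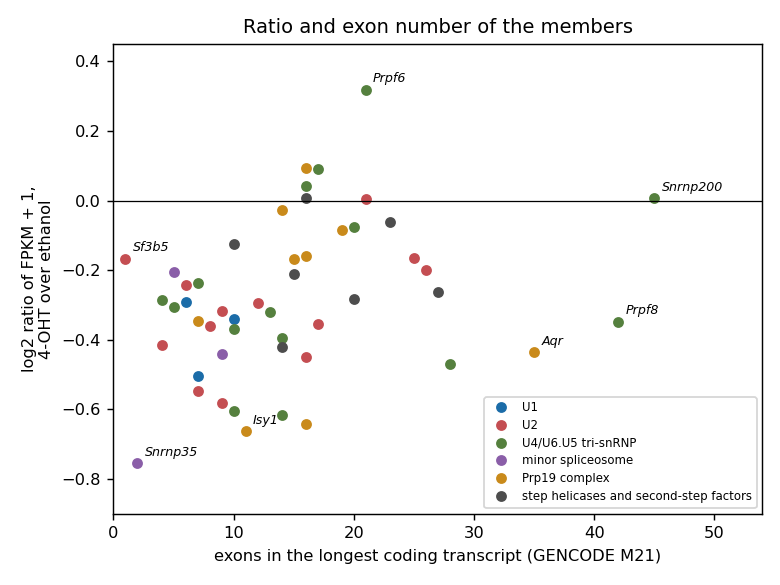
Log2 ratio of FPKM + 1, 4-OHT over ethanol, of the 50 members against the number of exons in the longest coding transcript, coloured by group. Snrnp35 with 2 exons is lowest at -0.75, Snrnp200 with 45 exons is level, and Prpf6 with 21 exons is highest at 0.32.

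Other spliceosome genes outside the particle-specific set were described from 8 lists, in which 73 rows were compared. Of these 63 were lower, 31 by at least 20%, against 55.1% and 29.9% of all compared rows. Their median log2 ratio was -0.29, the same as that of the members to that precision. The Sm ring, which carries the arginines that PRMT5 methylates, had all 7 compared genes at least 20% lower (median -0.47), from Snrpg, at 324 FPKM in 4-OHT and 511 FPKM in ethanol (-0.66), to Snrpb at -0.34. Snrpn, a tissue-restricted relative of Snrpb, was below 1 FPKM in both conditions and was not compared. In the LSm ring, which binds U6, all 6 compared genes were lower (median -0.56), from Lsm7 at -0.89 to Lsm3 at -0.30. The particle-specific groups had medians between -0.44 and -0.17, all above those of both rings, and this difference was not tested. The order of the minor spliceosome and the Sm ring was not stable. In the authors' deposited table the minor spliceosome median was -0.480, and Snrpd2, the middle gene of the Sm ring, was at -0.477.

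The proteins that join individual steps varied by list. Counts of lower genes stand beside 55.1% lower over all compared rows. Of 9 U1-associated genes 7 were lower (median -0.46), with the lowest ratio at Tia1, at 7.78 FPKM in 4-OHT and 14.8 FPKM in ethanol (-0.85), and the highest at Luc7l (0.35). Of 11 U2-associated genes 10 were lower (median -0.29), from Rbm17 at -0.48 to Smndc1 at 0.15. Of 10 genes of the B complex 9 were lower, but this was the flattest list, with a median of -0.09 and values from -0.25 (Prpf38a) to 0.03 (Ik). None of the 10 was at least 20% lower or 25% higher, against 29.9% and 27.7% of all compared rows. Of 16 genes listed as Bact complex and Prp19-related 13 were lower (median -0.26). They ran from the cyclophilin gene Ppil1, at 34.3 FPKM in 4-OHT and 65.7 FPKM in ethanol (-0.92), to Dhx35 at 0.31. Of 9 genes of the catalytic step and release 6 were lower (median -0.15), from Ddx39b at -0.40 to Fam50a, at 35.3 FPKM in 4-OHT and 23.5 FPKM in ethanol (0.57). Mfap1a and Mfap1b are near-identical copies whose reads may have been divided between them.

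**Figure D5:**
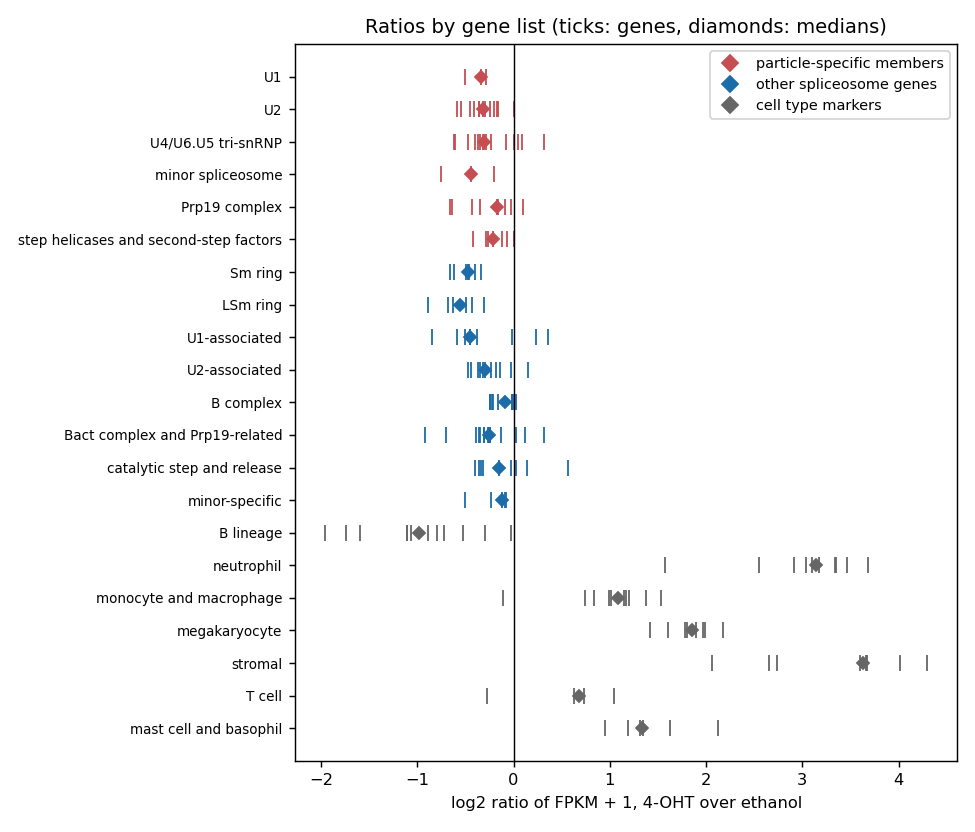
Log2 ratio of FPKM + 1, 4-OHT over ethanol, of each compared gene (ticks) and the median (diamonds) of the member groups, the other spliceosome lists and the cell type marker lists with at least 3 compared genes. The spliceosome lists lie between -0.56 and -0.09, between the B-lineage markers at -0.98 and the markers of other cells at 0.68 to 3.63.

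Summed over all 50 members, the levels came to 2250.4 FPKM in 4-OHT and 2786 FPKM in ethanol (log2 ratio of the sums -0.31, with nothing added to the sums). The order of the members by level was nearly the same in both conditions, with a Spearman correlation of 0.98 across the 50 genes. By group, the log2 ratio of the sums, taken in the same way, was -0.44 for the minor spliceosome, -0.37 for U1, -0.37 for the Prp19 complex, -0.30 for U2, -0.30 for the step helicases and second-step factors and -0.26 for the tri-snRNP. For the Prp19 complex the ratio of the sums lay well below the median of the ratios (-0.17), and Prpf19, the most abundant of its 9 genes, was among its lowest ratios. The values are levels of transcripts and do not measure splicing, intron retention or the proteins.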

How the data were processed

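Per the labels' protocols, paired-end libraries were made with the TruSeq RNA kit v2, which does not mark strand. The authors deposited FPKM values, 1 per gene and condition, with no column per library. CASAVA, TopHat2 (2.0.9), Cufflinks (2.1.1) and build mm9 are named in the submitters' processing notes. Not given in the sources used here are how the 3 libraries of a condition were combined or scaled and how reads shared with near-identical copies were counted. The authors' deposited log2 fold changes are plain ratios of 4-OHT to ethanol: for the 50 members they differed from log2 of that quotient by at most 8.23e-06.

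From these, 1 FPKM was added to each value and the log2 ratio of 4-OHT to ethanol was taken, which understates the change of low genes. Compared were the 10856 of 21307 rows whose values were both above 0 and averaged 1 FPKM or more. With 1 value per condition, the linear model laid down for libraries could not be fitted. A gene was counted as past a size at 20% lower or 25% higher, at 1.5-fold or at 2-fold, and counts of members stand beside those of all compared rows. The members, lists and sizes were chosen with earlier results of these data known, and the motifs, the exon numbers and the comparison with rows of similar level after the values were seen. Every member was named; in the other lists, the genes with the highest and lowest ratio. One erythroid marker is not reported here. Not matched by name, and not analysed here, were Lsm8, U2surp, Cactin, Paxbp1, S100a8, S100a9, Adgre1, Hba-a1, Hbb-b1 and Trac. Of the compared members, 3 overlap another row of the table: Sf3a3 (Mir697), Sf3b3 (Snord111) and Sart1 (D330050I16Rik).

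Locus starts were raised by 1, since locus lengths equalled RefSeq gene lengths (GRCm38.p6, names matched for 18851 rows) in 6341 rows counted from 0 and in 437 counted from 1. Promoter windows are RefSeq's on GRCm38.p6 and share no coordinates with the mm9 loci. The ratio was tested on simulated data with known folds. Computation ran in Python 3.11.15 with pandas 2.3.3, numpy 2.4.6 and, for plots, matplotlib 3.10.9.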

Additional observations from a re-analysis of the deposited data

How the results depend on the processing

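The direction of the median of the members held under all 9 alternatives, with values from -0.30 to -0.22, and the medians of the 6 groups stayed below 0 in each. The members lower in 4-OHT numbered 40 to 43, the 40 being of the 47 members left without overlapping rows. The share of all rows lower ran from 46.9% with no filter on the mean to 58.7% with a minimum mean of 5 FPKM. Those members at least 20% lower numbered 15 to 23. The share of all compared rows at least 20% lower moved as well. It was 29.9% in the main setting (21 of 50 members), 24.5% with median-of-ratios scaling (15 of 50) and 33.3% with quantile normalization (19 of 50). The fewest at that size were found with median-of-ratios scaling. There 41 members were lower, against 50% of all compared rows, and 9 were higher. The median of all compared rows stood at 0, against -0.07 as deposited. That scaling put Crnkl1 (0.04) and Dhx8 (0.01) above 0, left the U1 median at -0.26, short of 20% lower, moved the medians of the Prp19 complex to -0.09 and of the step helicases and second-step factors to -0.14, and took 6 members under that size: Snrnp70, Sf3a3, U2af1, Prpf8, Ppih and Bcas2. Quantile normalization took 2 of them, Prpf8 and Bcas2, under it. The median of U2, which is Sf3a2, passed the size with a pseudocount of 0.1 (-0.33), with one of 0.5 (-0.32) and in the authors' deposited table (-0.33). These 3 settings also took Usp39 and Prpf6 past the size, Prpf6 in the higher direction. Leaving out the 3 members that overlap another row was added after the data were seen and left 47 members, 40 lower, with a median of -0.29. A minimum mean of 5 FPKM, no filter on the mean and leaving out merged rows did not touch the members. No paired analysis was possible because each condition has a single pooled column, and leaving out a library could not be run either. Without counts or libraries, the depth behind a value and the error of a small ratio cannot be stated, and most ratios here are small.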
